A study of Homo sapiens with 2 samples.

Results

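The genes of the PRMT5 methylosome and its cofactors were followed in Tu212 cells, an epithelial-derived head and neck squamous carcinoma line. They were chosen by name for their place in the complex, with earlier results of these data known: the methyltransferase gene PRMT5, its antisense gene PRMT5-AS1, the partner gene WDR77, the adaptor genes CLNS1A, RIOK1 and COPRS, and the Sm-protein acceptor genes GEMIN2 and SMN1. All 8 were found among the 56690 gene symbols of the table. All 8 passed a floor of 10 reads in either library, as did 17777 symbols in all, which are called all genes here. The cells had received a pEZ plasmid carrying PRMT5 or the pEZ vector alone for 48 h, and polyadenylated RNA of 1 library per group was sequenced. Reads on genes came to 19908258 with PRMT5 overexpression and 14119997 with the vector. The share of cells that carried the plasmid, and any selection for it, are not stated. In such bulk RNA, more cells with the plasmid and more PRMT5 RNA per cell cannot be told apart. With 1 library per group no difference has a replicate check, and every interval below is a 95% interval for counting error alone.

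PRMT5 places symmetric dimethyl marks on arginines of histones and of RNA-binding proteins. It works in a complex with the WD-repeat protein WDR77, which helps to hold substrates and without which PRMT5 has little activity. Adaptors then choose the substrate: CLNS1A (pICln) brings the Sm proteins of the spliceosome, RIOK1 brings nucleolin and competes with CLNS1A for the same place on PRMT5, and COPRS leads PRMT5 to histones. Methylated Sm proteins pass to the SMN complex, in which SMN1 encodes the SMN protein and GEMIN2 the subunit that cradles the Sm proteins before they close around a small nuclear RNA.

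Sequence limited the reading of SMN1, because the SMN2 gene is a near-copy of it. The longest transcripts of SMN1 and SMN2 in GENCODE release 29, equal in length, differed at 2 bases, 1 of them in the coding sequence. The coding difference was C914T, counted from the first base of the transcript with the SMN1 base first, and lay in exon 8 of 9 of these transcripts. It is the change known to make most SMN2 transcripts lose this exon. The first 30 bases of the exon are shown with that base in capitals, at chr5:70951941-70951970 for SMN1 and chr5:70076521-70076550 for SMN2, both on the plus strand of GRCh38.
SMN1: ggtttCagacaaaatcaaaaagaaggaagg
SMN2: ggtttTagacaaaatcaaaaagaaggaagg
Of 149 stretches of 50 bases along the SMN1 transcript, 139 (93.3%) also occurred in SMN2, so a read from most of the transcript matches both genes. The counts of SMN1 and SMN2 are therefore uncertain singly and are also given as a sum.

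PRMT5 itself (ENSG00000100462; chromosome 14, 22920511 to 22929585 in GRCh38, minus strand) checked the labels. It had 5770 reads in the PRMT5 overexpression library, against 2068 in the vector control. After scaling by TMM, these were 293 CPM (reads scaled to a common library size; interval 285 to 300) and 145 CPM (139 to 151), so the gene lay higher in the library labelled PRMT5 overexpression and the intervals did not meet. The fold was 2.02, with an interval of 1.92 to 2.12, and the log2 ratio was 1.01. It lay at the 2-fold line, and was 0.98 when libraries were scaled by their totals alone and 0.93 in deposited FPKM with a pseudocount of 1. Reads from the plasmid and from the endogenous gene are counted together, and their shares cannot be told apart in a table of gene counts. Of the 4118 genes that averaged at least 1000 reads over both libraries, 16 (0.389%), PRMT5 included, reached 2-fold higher. PRMT5 had the lowest log2 ratio of these 16. The 5 genes of that depth nearest to PRMT5 in log2 ratio, a likeness over only 2 libraries, were OAZ2, HILPDA, YY1, SON and SINHCAF, with log2 ratios of 0.96 to 1.06.

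**Figure D1:**
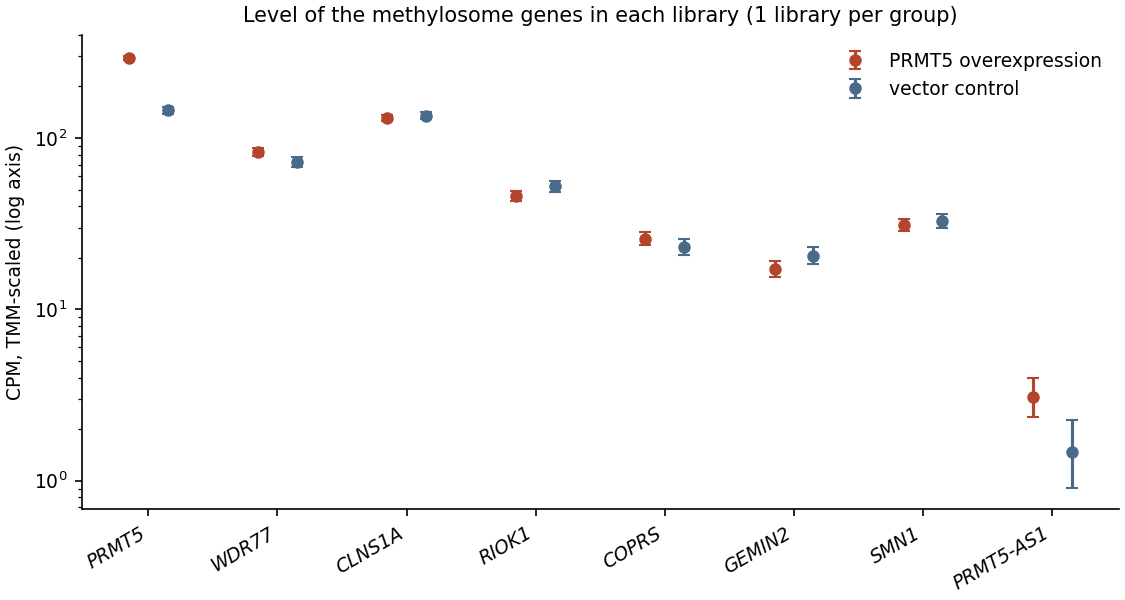
TMM-scaled CPM of each gene on a log axis, with exact 95% Poisson intervals; the left point of each pair is the PRMT5 overexpression library and the right point the vector control. PRMT5 sat at 293 against 145 CPM, and the points of the 6 partner genes lay close together in pairs.

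WDR77 (ENSG00000116455; chromosome 1, 111439890 to 111449376), the obligate partner of PRMT5, had 1634 reads or 82.9 CPM in the PRMT5 overexpression library and 1035 reads or 72.6 CPM in the vector control. Its intervals, 78.9 to 87.0 and 68.2 to 77.1 CPM, did not meet, but the distance was small. The log2 ratio was 0.19 (0.08 to 0.31), and 21.9% of 4691 genes of like depth (mean reads within 2-fold) lay at least as far from 0. WDR77 shares 673 exon bases with AL390195.1 on its own strand and 350 with ATP5PB, a subunit of the mitochondrial ATP synthase, on the other. ATP5PB had 4700 and 3160 reads in the overexpression and control libraries, and the part of reads on shared bases in the WDR77 count was not tested.

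Of the 3 adaptor genes, COPRS lay above 0 and CLNS1A and RIOK1 below, all by little. CLNS1A (ENSG00000074201; chromosome 11, 77514936 to 77637805) had 2577 reads or 131 CPM in the PRMT5 overexpression library, and in the vector control 1931 reads or 135 CPM. The log2 ratio of -0.05 had an interval that held 0, from -0.14 to 0.04. RIOK1 (ENSG00000124784; chromosome 6, 7389496 to 7418037) had 905 reads or 45.9 CPM, against 745 reads or 52.2 CPM in the vector control. It lay slightly lower with PRMT5 overexpression, at a log2 ratio of -0.19 (-0.33 to -0.04). COPRS (ENSG00000172301; chromosome 17, 31851864 to 31859337) had 510 reads or 25.9 CPM, against 331 reads or 23.2 CPM in the vector control, a log2 ratio of 0.16 (-0.05 to 0.36). Of genes at like depth, 69.7% lay as far from 0 as CLNS1A, 25.8% as far as RIOK1 and 39.8% as far as COPRS.

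On the acceptor side, both genes lay below 0. GEMIN2 (ENSG00000092208; chromosome 14, 39114223 to 39136973) had 341 reads or 17.3 CPM in the PRMT5 overexpression library, and in the vector control 293 reads or 20.5 CPM. The log2 ratio of -0.25 (-0.48 to -0.02) was the lowest of the 8 genes, with the upper bound close to 0, and 23.9% of genes of like depth lay as far out. SMN1 (ENSG00000172062; chromosome 5, 70925030 to 70953942) had 613 reads or 31.1 CPM, against 469 reads or 32.9 CPM in the vector control, and a log2 ratio of -0.08 (-0.26 to 0.10). SMN2 had 265 and 220 reads in the overexpression and control libraries, a log2 ratio of -0.20. SMN1 and SMN2 summed gave -0.12, with an interval of -0.26 to 0.03 that held 0. SMN1 took 69.8% of that sum with PRMT5 overexpression (66.7 to 72.8, Clopper-Pearson) and 68.1% in the vector control (64.4 to 71.5), and the intervals of this split overlapped. This split also depends on how reads that match both genes were assigned, which is not stated and which the intervals do not cover. Each of the 4 pseudogenes named after these genes (CLNS1AP1, GEMIN2P1, GEMIN2P2 and PRMT5P1) had 0 reads in both libraries, and a count of 0 allows up to 3.

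As a group, 2 of the 8 genes (PRMT5 and PRMT5-AS1) were at least 2-fold higher, where 2.90% of all 17777 genes were. PRMT5 was the gene on the plasmid, and PRMT5-AS1 shares 938 exon bases with it. This count therefore says nothing of the group beyond these 2 genes. PRMT5-AS1 was under 2-fold with a prior count of 5, at 0.94, and in deposited FPKM with a pseudocount of 1, at 0.25. None of the 6 partner genes reached 1.5-fold in either direction, where 12.4% of all genes did. All genes include many with few reads. Of the 4118 genes that averaged at least 1000 reads, 2.62% did, so 0 of 6 does not set the partners apart. Their log2 ratios ran from -0.25 to 0.19 with a median of -0.07, 2 above 0 and 4 below, against a median of 0.00 over all genes, of which 50.4% lay above 0. Counting intervals missed 0 for 3 of the 6 (WDR77, RIOK1 and GEMIN2), as they did for 28.6% of all genes and for 2057 of the 4118 well-read ones. An interval that misses 0 was thus common in this pair of libraries.

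The ratio of reads between 2 genes of the same library needs no scaling, and it was compared between libraries for all 28 pairs, without adjustment for their number. There were 3.53 PRMT5 reads per WDR77 read in the PRMT5 overexpression library, against 2.00 in the vector control, a relative fold of 1.77 (1.61 to 1.94). PRMT5 was 2.09-fold higher relative to CLNS1A (1.93 to 2.26), 2.30-fold relative to RIOK1 (2.06 to 2.57) and 1.81-fold relative to COPRS (1.56 to 2.1). Relative to GEMIN2 and SMN1 the fold was 2.40 (2.03 to 2.83) and 2.13 (1.87 to 2.44). All 6 intervals lay above 1, so PRMT5 had more reads relative to each of the 6 partners in the overexpression library. The 6 folds share the reads of PRMT5, the gene on the plasmid. They mostly restate its own fold and are not 6 separate results.

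Among the partners themselves, 6 of 15 pairs had an interval that missed 1, with relative folds nearer 1. Each of these 6 pairs held WDR77 or COPRS, so they share reads and are not 6 separate results. The share among pairs of other genes was not computed. For single genes, counting intervals missed 0 in 28.6% of all genes and in 2057 of the 4118 well-read ones. WDR77 was 1.3-fold higher relative to RIOK1 (1.15 to 1.47) and 1.36-fold relative to GEMIN2 (1.13 to 1.62). Relative to COPRS it was at 1.02 (0.871 to 1.20), an interval that held 1. The competing adaptors CLNS1A and RIOK1 stood at 2.85 reads of CLNS1A per read of RIOK1 with PRMT5 overexpression and 2.59 in the vector control, a relative fold of 1.10 whose interval of 0.979 to 1.23 held 1. RIOK1 was lower relative to COPRS, at a relative fold of 0.788 (0.663 to 0.937).

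**Figure D2:**
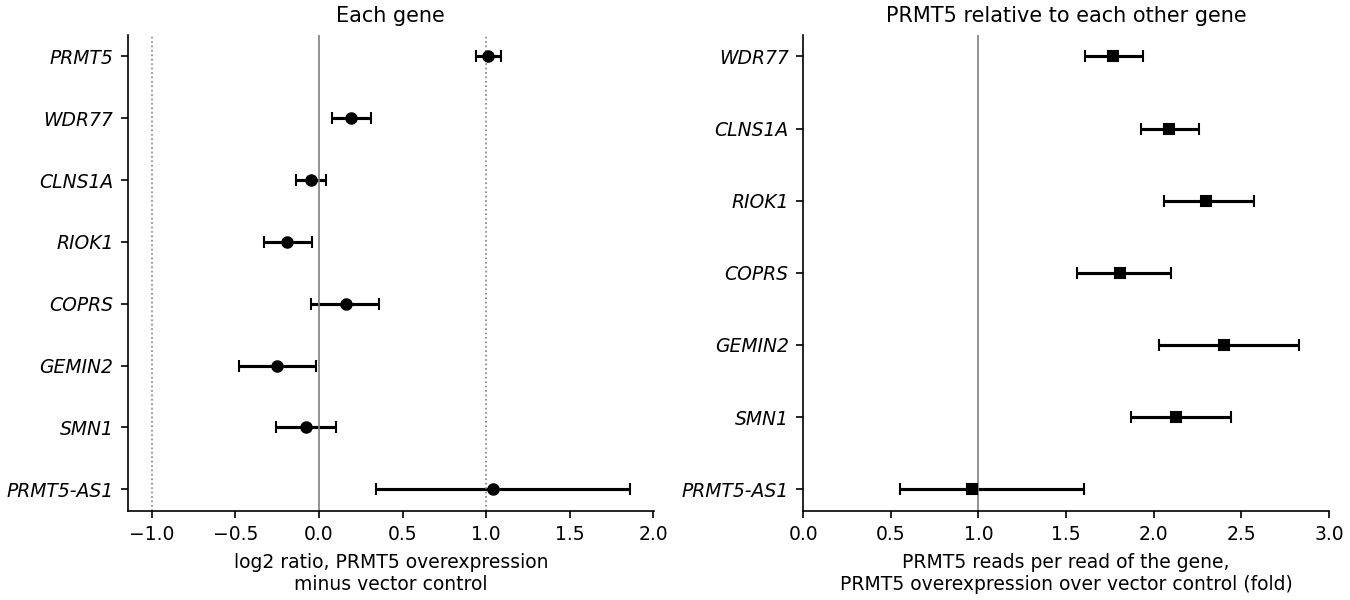
Left, log2 ratio of each gene with its 95% counting interval, PRMT5 overexpression minus vector control, with dotted lines at 2-fold. Right, reads of PRMT5 per read of each other gene, as the fold of PRMT5 overexpression over vector control with exact intervals; 6 partners lie between 1.77 and 2.40, and PRMT5-AS1 at 0.961.

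PRMT5-AS1 (ENSG00000237054; chromosome 14, 22918947 to 22926900, plus strand), an antisense RNA gene that runs across the 3' part of PRMT5, had 61 reads or 3.09 CPM in the PRMT5 overexpression library. The vector control had 21 reads or 1.47 CPM. The log2 ratio of 1.04 had a wide interval of 0.34 to 1.86 that rests on few reads, and 5.42% of 2933 genes of like depth lay as far from 0. PRMT5-AS1 made up 1.05% of the reads of the 2 genes with PRMT5 overexpression (0.801 to 1.34) and 1.01% in the vector control (0.623 to 1.53), and these intervals overlapped. On opposite strands, 938 exon bases belong to both, 29.4% of the merged exons of PRMT5-AS1 and 27.1% of those of PRMT5. Reads on shared bases can be assigned to a gene by strand only, and the strand setting of the counting is not stated. Their part in the PRMT5-AS1 count was not tested.

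Of the genes near PRMT5 on chromosome 14, picked after their values were seen, those with the most reads were near 0. RBM23, an RNA-binding protein gene whose exons overlap those of PRMT5-AS1 by 186 bases, had 989 reads with PRMT5 overexpression and 669 in the vector control, a log2 ratio of 0.10 (-0.05 to 0.24). HAUS4, a subunit of the spindle complex augmin, had 1149 reads with PRMT5 overexpression and 779 in the vector control, a log2 ratio of 0.09 (-0.04 to 0.23). LRP10 was at -0.02 (-0.07 to 0.03). The antisense gene AL132780.1, which starts beside PRMT5 and runs the other way, had 5 reads with PRMT5 overexpression and 3 in the vector control, too few to place it. REM2 had 23 reads with PRMT5 overexpression and 25 in the vector control, a log2 ratio of -0.56 with a wide interval of -1.47 to 0.29.

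**Figure D3:**
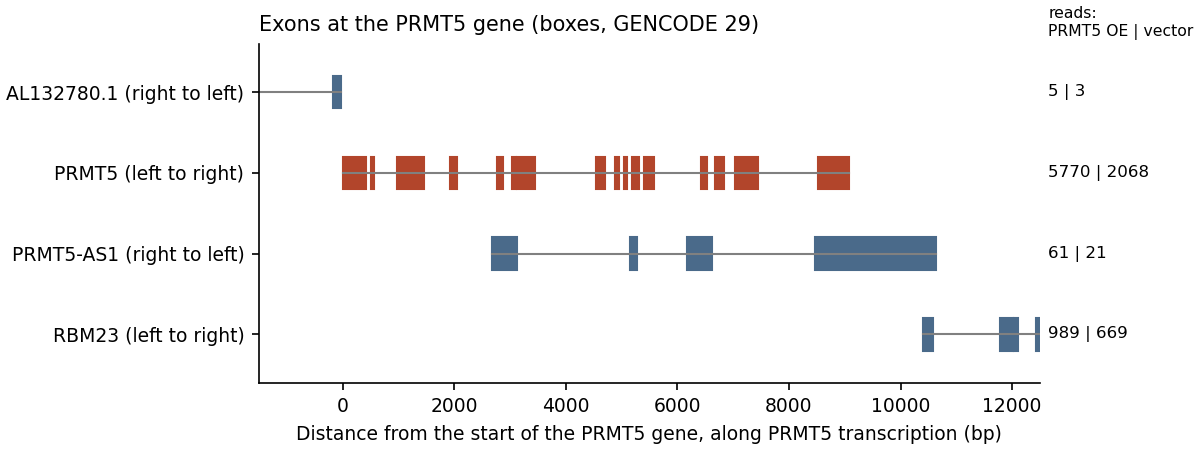
Merged exons of PRMT5 and its neighbours in GENCODE 29, by distance in bp from the start of PRMT5 along its transcription, with reads in the PRMT5 overexpression and vector control libraries at the right. Exons of PRMT5-AS1, which had 61 and 21 reads, lie over exons of PRMT5, with 5770 and 2068 reads; AL132780.1 and RBM23 are drawn in part.

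Which of these genes is the most abundant depended on the length used. In deposited FPKM of the PRMT5 overexpression library, PRMT5 led at 24.6 (24.0 to 25.3), not apart from WDR77 at 23.0 (21.9 to 24.1). CLNS1A followed at 17.2, then RIOK1 at 10.7 and COPRS at 10.5, not apart from each other, SMN1 at 5.04, GEMIN2 at 3.26 and PRMT5-AS1 at 0.456. In the vector control WDR77 led at 20.5 FPKM, before CLNS1A at 18.2, while RIOK1 at 12.5 and PRMT5 at 12.4 FPKM shared the next place within their intervals. COPRS at 9.57, SMN1 at 5.44, GEMIN2 at 3.94 and PRMT5-AS1 at 0.221 FPKM followed there.

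The length behind these FPKM values was recovered from the counts. It was 11773 bp for PRMT5, more than the 9075 bp that the whole gene spans, introns included. It equalled the summed length of every distinct annotated exon in GENCODE 29, in which exons that overlap are counted repeatedly, within 1% in 92.2% of 11471 genes. Among the 8 genes GEMIN2 was the exception, with a recovered length of 5261 bp against a sum of 5830 bp. Merging the overlapping exons left 3467 bp for PRMT5. The same 2 lengths were 3569 and 2805 bp for WDR77 and 7512 and 4592 bp for CLNS1A, and the excess over merged exons was greatest for PRMT5 among the 8 genes.

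With each exon base counted once, PRMT5 led in both libraries, at 241 TPM (reads per merged exon length, scaled to a common total; 234 to 247) with PRMT5 overexpression and 128 TPM (123 to 134) in the vector control. WDR77 stood at 84.2 and 79.5 TPM and CLNS1A at 81.1 and 90.6 TPM in the overexpression and control libraries. COPRS, at 51.5 and 49.8 TPM, lay above RIOK1 at 40.4 TPM with PRMT5 overexpression, and not apart from its 49.6 TPM in the vector control. SMN1 at 28.6 and 32.6 TPM, GEMIN2 at 17.9 and 22.9 TPM and PRMT5-AS1 at 2.76 and 1.42 TPM were lowest. The level of PRMT5 over that of WDR77, whose proteins bind in equal numbers, was 2.86 with PRMT5 overexpression and 1.62 in the vector control on merged exons, but 1.07 and 0.606 in deposited FPKM. These are levels of RNA and do not give the ratio of the proteins. Neither length takes account of which transcripts the cells used, or of which part of PRMT5 the plasmid carried. The order is thus less certain than the counting intervals show.

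**Figure D4:**
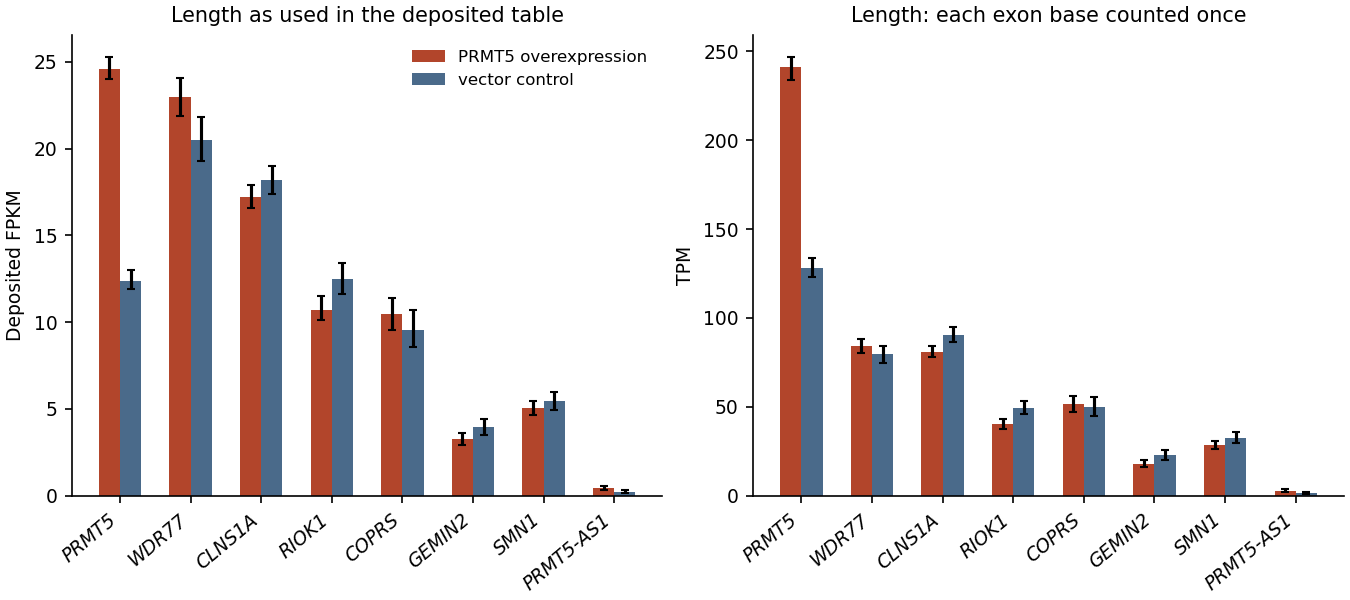
Level per length of each gene with 95% counting intervals, in deposited FPKM (left) and in TPM on merged exons (right); the left bar of each pair is PRMT5 overexpression and the right bar vector control. In the vector control PRMT5, at 12.4, lies below WDR77, at 20.5, in FPKM, and above it, at 128 against 79.5, in TPM.

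Genes that act with or on the complex were described in 7 lists of 71 genes, all of them measured. Only AJUBA and ZNF224 reached 1.5-fold, 1 lower and 1 higher, and 0 reached 2-fold. Of all genes, 7.06% reached 1.5-fold on the higher side and 5.33% on the lower. Of the 4118 genes that averaged at least 1000 reads, 1.46% and 1.17% did. Counting intervals missed 0 for 30 of the 71 list genes (42.3%), against 28.6% of all genes and 2057 of the 4118 well-read ones. The 7 medians lay between -0.05 and 0.08, against 0.00 over all genes.

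Downstream of the adaptors, the 8 other genes of the SMN complex had a median log2 ratio of 0.00, 4 above 0 and 4 below. GEMIN5, which recognises small nuclear RNAs, had 57.1 CPM with PRMT5 overexpression and 53.2 CPM in the vector control, and STRAP, which binds GEMIN7, had 159 and 182 CPM. Their log2 ratios were 0.10 (-0.03 to 0.24) and -0.19 (-0.26 to -0.11). GEMIN4 was the highest of the list at 0.31 (0.16 to 0.46). The 8 genes of snRNP export, maturation and import had a median of 0.03. Its members with most reads, the export receptor XPO1 and the import receptor KPNB1, were at 0.09 and 0.03, and SNUPN, the adaptor that carries assembled snRNPs into the nucleus, was the highest at 0.53 (0.36 to 0.70), with 850 reads against 425 in the vector control.

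Among 19 genes of proteins that PRMT5 methylates, the median was 0.01, and 11 lay above 0 and 8 below. The Sm and LSm protein genes SNRPB, SNRPD1, SNRPD3 and LSM4, whose products CLNS1A presents to PRMT5, were at 0.19, 0.01, 0.14 and 0.35, and the interval of SNRPD1 held 0. These 4 were also set apart after their values were seen. Of all genes, 50.4% lay above 0. Intervals missed 0 for 28.6% of all genes and for 2057 of the 4118 that averaged at least 1000 reads, a group that holds these 4. Nucleolin, the substrate that RIOK1 brings, had 6860 reads with PRMT5 overexpression and 4950 in the vector control, a log2 ratio of 0.00 for its gene NCL. EGFR, the receptor gene with the most reads of the list, was at -0.13, and POLR2A, the largest subunit of RNA polymerase II, at -0.05.

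The 10 genes of nuclear partners had a median of -0.05 and held both genes past 1.5-fold. AJUBA, a LIM-domain protein that joins PRMT5 to the repressor SNAIL, had 1417 reads or 71.9 CPM with PRMT5 overexpression, against 1716 reads or 120 CPM in the vector control, a log2 ratio of -0.74 (-0.85 to -0.64). The SNAIL gene SNAI1 had 21 and 16 reads in the overexpression and control libraries, which left its interval at -1.08 to 0.96. ZNF224, a zinc finger repressor that recruits PRMT5, had 283 reads, against 136 in the vector control, a log2 ratio of 0.59 (0.29 to 0.90). This lay at the 1.5-fold line, and was under it with a prior count of 5 (0.58), total counts (0.56) and deposited FPKM (0.30), while AJUBA stayed past it under these settings. SMARCA4, the ATPase of a chromatin remodeller that binds PRMT5, was at -0.03.

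Of 8 genes whose products modify PRMT5 or WDR77, the median was 0.02. CCND1 and CDK4 encode the cyclin D1 kinase that phosphorylates WDR77 and were at 0.35 (0.30 to 0.41) and -0.16 (-0.25 to -0.07). AKT1 was the lowest of the list at -0.55 (-0.65 to -0.45). The 5 Tudor-domain genes whose products bind or are thought to bind methylated arginine had a median of 0.01, with SND1 at 0.17 and SMNDC1 at -0.15.

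PRMT5 takes its methyl groups from S-adenosylmethionine (SAM), and methylthioadenosine (MTA), which is left when SAM is used for polyamines, inhibits it. The 13 genes around these metabolites had a median of 0.08. MAT2A, the enzyme that makes SAM, was the lowest at -0.32 (-0.37 to -0.28), with 395 CPM against 495 CPM in the vector control. AHCY, which clears the product of methylation, was at 0.21 (0.15 to 0.27). MTAP, which breaks MTA down and is deleted in many carcinomas, was expressed in both libraries, with 1855 reads against 989 in the vector control and a log2 ratio of 0.44 (0.33 to 0.55). Of the 5 genes that carry MTA back to methionine, MTAP, MRI1, APIP and ADI1 lay between 0.36 and 0.51 with intervals above 0, and ENOPH1 was at -0.07 (-0.19 to 0.06). These 5 were set apart after their values were seen, and counting intervals missed 0 for 28.6% of all genes and for 2057 of the 4118 well-read ones. The polyamine genes SRM and SMS, whose reactions yield MTA, and AMD1, which makes the decarboxylated SAM they use, lay between -0.05 and 0.08 with intervals that held 0.

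**Figure D5:**
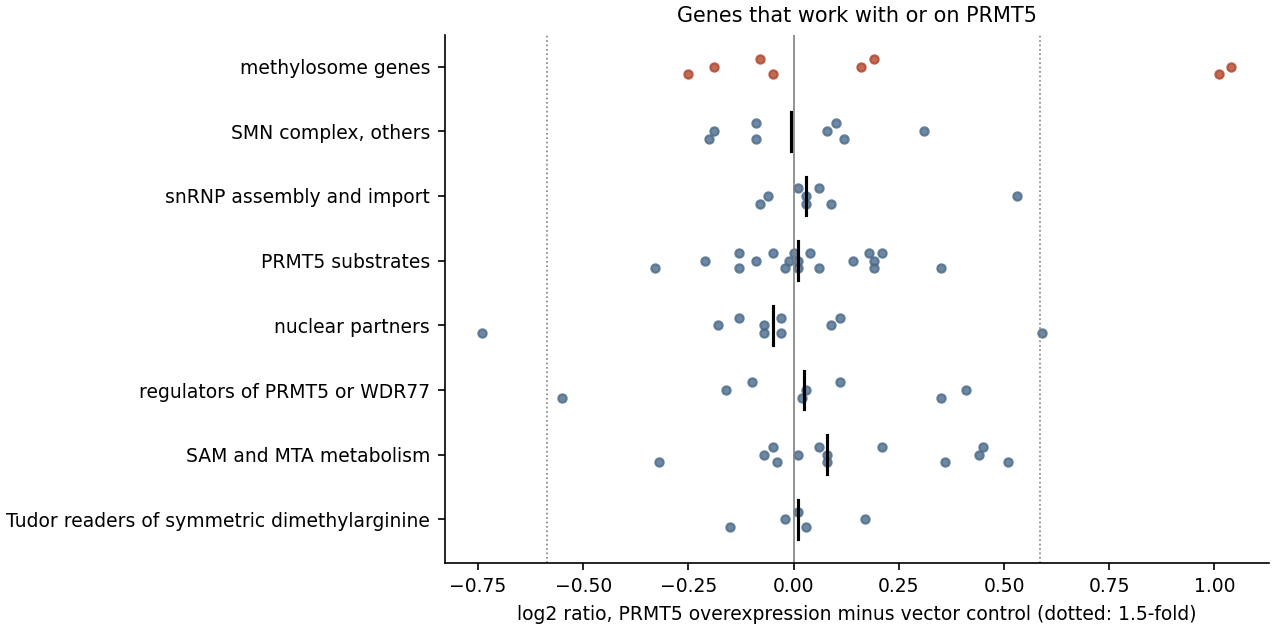
Each point is 1 gene, placed by its log2 ratio of PRMT5 overexpression over vector control; black bars are list medians and dotted lines mark 1.5-fold. PRMT5 and PRMT5-AS1 lie apart at 1.01 and 1.04, and among the 7 lists only AJUBA, at -0.74, and ZNF224, at 0.59, pass a dotted line.

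All 10 epithelial markers had 10 or more reads in both libraries, with summed levels of 11806 CPM with PRMT5 overexpression and 10787 CPM in the vector control. Of 7 fibroblast markers, 2 and 5 had 10 or more reads in the overexpression and control libraries, with sums of 81.1 and 98.3 CPM, and DCN was at 0 with PRMT5 overexpression. Of 5 leukocyte markers, 1 with PRMT5 overexpression and 2 in the vector control reached 10 reads, with sums of 16.9 and 21.6 CPM. Of 4 endothelial markers, 2 did in each library, with sums of 4.46 and 5.96 CPM. CD3E with PRMT5 overexpression, PTPRC in the vector control, PECAM1 with PRMT5 overexpression and CDH5 in both were at 0. Their part in the values above was not tested.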

How the data were processed

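The deposited table held 58302 genes of 1 PRMT5 overexpression and 1 vector control library, grouped by the genotype in the labels. The submitters' processing notes name the builds GRCh38 and hg38 and the tools HISAT2 2.1.0, StringTie 1.3.4b, CASAVA 1.8 and edgeR, with no role for any; the counting tool and strand setting are not given in the sources used here. Raw counts and FPKM values were used as deposited by the authors.

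Rows of 1 symbol were summed. Counts were scaled by TMM over the whole table (edgeR 4.0.16, R 4.3.3; factors 0.990 for PRMT5 overexpression and 1.01 for the vector control) and log2 ratios used a prior count of 1. A floor of 10 reads in either library left 17777 genes as the background. Intervals are 95% exact binomial, Poisson or conditional odds-ratio intervals (scipy 1.17.1, Python 3.11.15). They cover counting error only. PCR duplicates are not independent molecules, so where duplicates were counted the intervals are too narrow even for that error. With 1 library per group there was no test. The code was tested on simulated data.

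Exons, lengths and transcripts came from GENCODE release 29 (GRCh38). Shared sequence is the percentage of 50-base stretches, taken every 10 bases of the longest transcript, found in transcripts of other genes. The alternatives tried were size factors of DESeq2 1.42.0, total counts, a prior count of 0.1 or 5, other floors, FPKM with a pseudocount of 1, and sums with overlapping genes; those for AJUBA and ZNF224 were added after their values were seen. The named genes were the 8 members, genes that overlap or copy them, the 5 genes nearest PRMT5 in log2 ratio, and from each list the genes at 1.5-fold or more and the 2 with most reads; other list members, locus neighbours and MYC were picked after their values were seen. The members and lists were chosen with earlier results of these data known. Some items are not reported here.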

Additional observations from a re-analysis of the deposited data

How the results depend on the processing

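With 1 library per group, the values describe 2 libraries, and depth limits PRMT5-AS1 most. No paired analysis was possible, because 1 library per group gives at most 1 pair. The member log2 ratios were recalculated 40 times, and 38 values stayed inside their counting intervals, although 2-fold was no longer reached by PRMT5 with total counts (0.98) or by PRMT5-AS1 with a prior count of 5 (0.94). Sums with overlapping genes are not counted here, because 1 gene gave most of the reads. With deposited FPKM and a pseudocount of 1, PRMT5 was at 0.93 and PRMT5-AS1 at 0.25; this setting adds a pseudocount, which shrinks ratios most at low levels, and also leaves out TMM, without which total counts gave 0.98 and 1.01. All 49 recalculated list medians moved by less than the typical counting error of their genes. The level of PRMT5 over that of WDR77 was 1.07 with PRMT5 overexpression and 0.606 in the vector control in FPKM, but 2.86 and 1.62 on merged exons, because the lengths differ. The 516 genes at least 2-fold higher and 344 lower became 2145 and 2872 without a floor, 136 and 118 when 50 reads were asked for, 238 and 219 among protein-coding genes, and 267 and 227 with a prior count of 5. Higher floors and protein-coding genes alone leave fewer genes to count.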

Other observations

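MYC, which in mouse lymphoma is known to raise the transcription of PRMT5 and of other genes of snRNP assembly, was picked here after its value was seen. It had 152 reads or 7.71 CPM in the PRMT5 overexpression library, against 1630 reads or 114 CPM in the vector control, a log2 ratio of -3.88 (-4.14 to -3.65). Beside that value, the 6 partner genes of PRMT5 lay between -0.25 and 0.19, the 4 Sm and LSm genes between 0.01 and 0.35, the other genes of the SMN complex between -0.20 and 0.31, and those of snRNP export, maturation and import between -0.08 and 0.53. Whether these values are related was not tested.

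The 5 genes whose log2 ratio lay nearest that of PRMT5 had the following values. OAZ2, an inhibitor of polyamine synthesis, had 103 CPM with PRMT5 overexpression and 49.9 CPM in the vector control. SON, a splicing cofactor, had 234 and 112 CPM, and YY1, a zinc finger transcription factor, 203 and 104 CPM in the same libraries. HILPDA, a lipid droplet protein, had 78.3 and 40.1 CPM, and SINHCAF, a subunit of a histone deacetylase complex, 138 and 70.7 CPM. Likeness over 2 libraries is a match of 1 ratio only.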
